A study of Mus musculus with 1504 samples.

Results

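Messenger RNA of the matrix metalloproteinases (MMPs), the ADAM and ADAMTS proteases, the ADAMTS-like proteins and the tissue inhibitors of metalloproteinases (TIMPs) was described in single cells sorted from the blood vessels of the adult mouse lung. Genes were taken by symbol alone (Mmp, Adam, Adamts or Adamtsl and a number, or Timp and a number), not by their values. They came to 82 of the 21947 genes in the count table, namely 23 Mmp, 31 Adam, 19 Adamts, 5 Adamtsl and 4 Timp genes.

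MMPs are zinc enzymes that cut collagens, elastin and other matrix proteins, and most leave the cell as inactive precursors. ADAMs are membrane proteases that release the outer parts of receptors, ligands and adhesion molecules, while the secreted ADAMTS enzymes trim procollagen and cut large proteoglycans. The ADAMTS-like proteins share the binding domains of the ADAMTS enzymes without the protease and associate with microfibrils. TIMPs block the active site of these enzymes, and in the lung their balance bears on the alveolar wall, the vessel wall and the airways.

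The study sorted lung cells of C57BL/6 reporter mice one by one into 384-well plates and made full-length SMART-seq2 libraries. Mice were 12 to 15 weeks old by their labels, while the design text of the series has 10 to 19 weeks. Cldn5(BAC)eGFP mice gave 769 cells, Pdgfrb(BAC)eGFP/NG2dsRed mice 361 and Pdgfrb(BAC)eGFP mice 374. Each reporter is a fluorescent protein driven from the control region of the gene it is named for, so a sorted cell is one in which that region was active: Cldn5 is an endothelial junction gene, and Pdgfrb and NG2 are genes of pericytes, smooth muscle and fibroblasts. Column names fell into 6 sets, with 243 cells in EC1, 275 in EC2, 251 in EC3, 128 in Mural1, 233 in Mural2 and 374 in Mural3. The EC sets were taken as the Cldn5 group. Mural1 and Mural2 together hold as many columns as one Pdgfrb group and Mural3 as many as the other, but no column name carries a reporter, so the mural sets keep their names here.

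The labels name no animal, plate or date, so cells are not replicates and each population counted as 1 sample. Levels are CPM, the reads of a gene per 1000000 reads summed over the cells of a unit, and a share of cells is the share with at least 1 read after each cell was thinned to 50000 reads. Intervals are exact Poisson, Clopper-Pearson or conditional binomial intervals at 95% and cover counting error only; reads copied by PCR are not independent molecules, and no test between populations was made. A gene was called different where the higher side reached 50 CPM with reads in 25% of its cells and the fold reached 4, or 2 between mural sets or between clusters of fibroblast-like cells. Cells held 100229 to 609242 reads, with a median of 240178, and the median was 197314 to 201706 in the EC sets and 235362 to 367962 in the mural sets. After thinning, the median of genes read in a cell was 1616 to 1620 in the EC sets and 3251 to 3609 in the mural sets. The part of this difference in shares of cells and in calls was not tested.

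Cells were clustered without the 82 genes and named only from marker lists. General capillary-like cells numbered 658, aerocyte-like cells (the large capillary cells that face the gas exchange surface) 76 and lymphatic-like cells 22, and all but 2 of these came from the EC sets. Pericyte-like cells numbered 70 and smooth muscle-like cells 69, all but 1 from Mural1 and Mural2. The 394 fibroblast-like cells fell into cluster 3 (49 cells, led by Col28a1 and Cilp), cluster 6 (289 cells, led by Scara5, Penk and C3) and cluster 7 (56 cells, led by Dner, Lamc3 and C1qtnf3), and 309 of them were from Mural3. The last class was 42 chondrocyte-like cells, 37 of them from Mural1. Clusters 4 and 9 held 101 and 72 cells with epithelial and leukocyte markers beside vascular ones and were given no name. Mural2 gave 44 cells to each of them, and Mural3 gave 45 and 19. The epithelial marker list was detected at 2.89 to 24.8% of marker and cell pairs in the named clusters, highest in smooth muscle-like cells, against 80.4% in cluster 4.

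All 82 genes had at least 1 read, and 53 reached 10 CPM in a population, set or class (14 Mmp, 15 Adam, 15 Adamts, 5 Adamtsl and 4 Timp). The 29 below were Mmp1a, Mmp1b, Mmp7, Mmp10, Mmp13, Mmp20, Mmp21, Mmp24 and Mmp25, 16 Adam genes with the testis genes Adam2, Adam18 and Adam32 among them, and Adamts13, Adamts16, Adamts19 and Adamts20. Adam28 was the highest of these at 9.44 CPM. Of 49 genes that reached 10 CPM in a named class, 25 were at least 2 times as high in 1 class as in the next, and 17 of those also had reads in 25% of that class's cells. The same rule was not run over all genes, so these counts describe the members and show no trait of the family. Those 17 were Adam15 and Mmp15 in general capillary-like cells, Adam10 and Adam12 in lymphatic-like cells, Adam3 and Adamts10 in pericyte-like cells, Timp4, Adam33, Adamts8, Adamts15 and Mmp17 in smooth muscle-like cells, Mmp3, Timp1, Adamts2, Mmp19 and Mmp23 in fibroblast-like cells, and Adamts3 in chondrocyte-like cells. With median-ratio factors the placements of Mmp15 and Adamts10 were lost, whose leads were 2.29-fold and 2.19-fold. No gene with reads in 25% of its cells was placed in aerocyte-like cells. A lead can rest on a single cell: all reads of Adam4 in aerocyte-like cells and of Adamts18 and Adam1a in lymphatic-like cells came from 1 cell each.

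**Figure D1:**
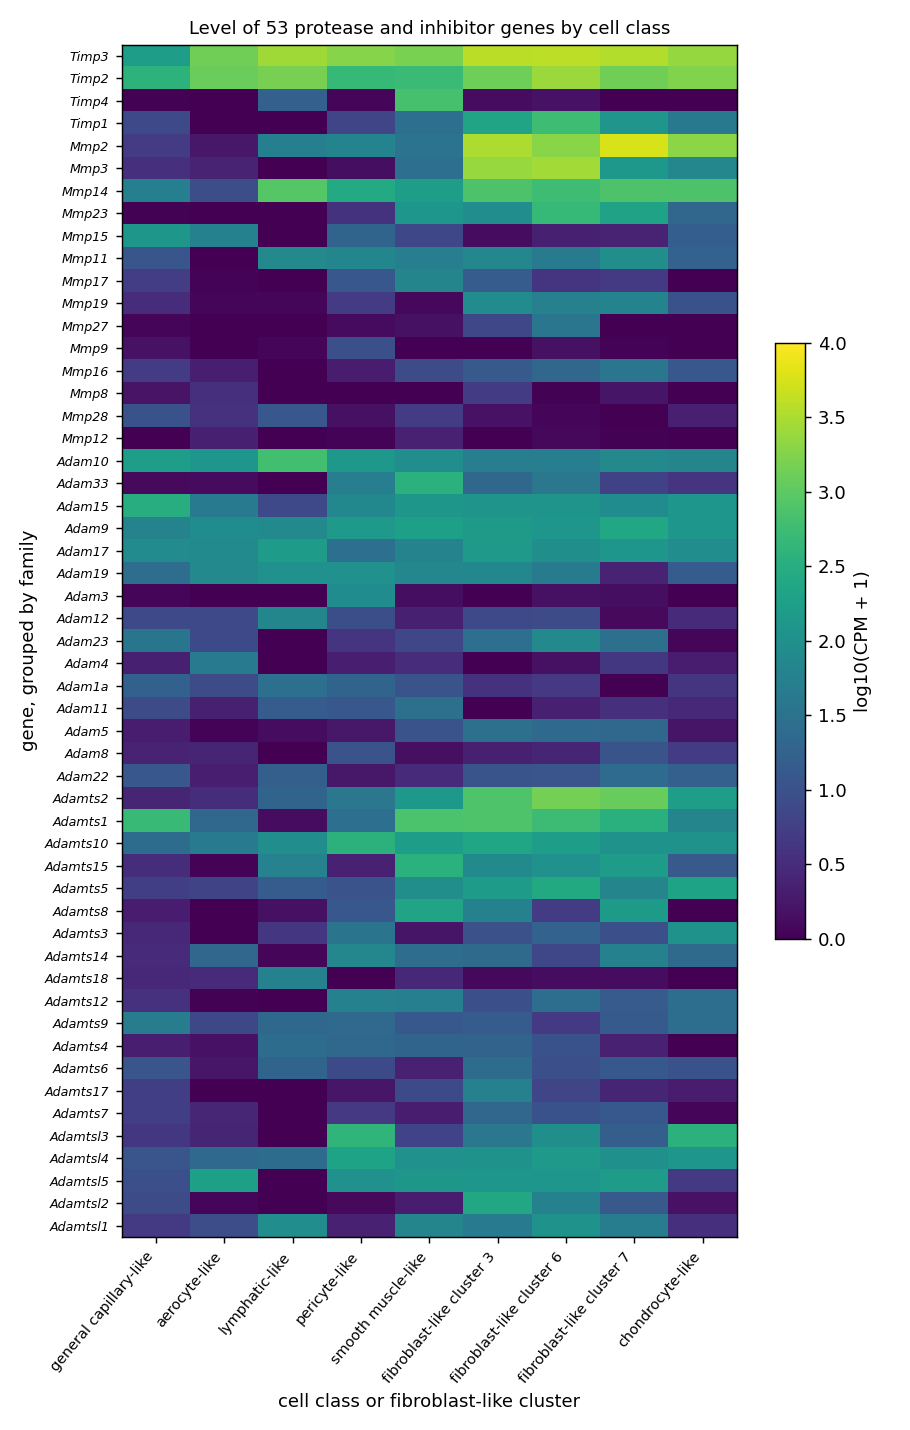
Level of the leading genes of the family (rows, 53 genes) in each marker-defined class and each cluster of fibroblast-like cells (columns), as log10 of CPM plus 1, from dark (0) to yellow. Mmp2, Mmp3, Adamts2 and Timp1 are brightest in the fibroblast-like columns and Timp4 (692 CPM), Adam33 and Adamts15 in the smooth muscle-like column; levels are not divided by length, so colours compare classes within a row.

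Divided by the length of the merged exons of each gene, so that genes can be added, the families took unlike shares of the total in each class. TIMP messages were 73.4% of the length-scaled total in aerocyte-like and 62.0% in lymphatic-like cells, 43.5%, 41.9% and 42.8% in pericyte-like, smooth muscle-like and chondrocyte-like cells, 34.9% in fibroblast-like cells and 30.1% in general capillary-like cells. MMP messages were 53.7% of the total in fibroblast-like and 42.9% in chondrocyte-like cells, but 11.7% in general capillary-like and 2.41% in aerocyte-like cells. Mmp3 alone gave 53.9% of the MMP sum in fibroblast-like cells, and its level differed widely between sets and cells, as given below. The order of MMPs and TIMPs in both stromal classes rested on the division by length: without it MMPs were 37.6% and TIMPs 40.2% in fibroblast-like cells, and 33.2% and 47.1% in chondrocyte-like cells. General capillary-like cells were the class with the highest ADAM share, 30.3%, and their ADAMTS share of 26.5% was 88.9% Adamts1. The ADAMTS-like share was highest in pericyte-like cells, 15.3%.

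The 4 inhibitors ranged from genes read in nearly all classes to one read mainly in 1 class. The bases just before the start of Timp1, Timp3 and Timp4 are printed because these genes differed in how many classes carried them. They are read 5′ to 3′ on the gene's strand from RefSeq on GRCm38.p6, Timp1 at chrX:20869916-20870165 (+), Timp3 at chr10:86300162-86300371 (+) and Timp4 at chr6:115252206-115252455 (−), 250 bases each except Timp3, shown for the 210 that precede its first annotated exon; capitals mark CpG pairs and matches to the motifs searched.
Timp1: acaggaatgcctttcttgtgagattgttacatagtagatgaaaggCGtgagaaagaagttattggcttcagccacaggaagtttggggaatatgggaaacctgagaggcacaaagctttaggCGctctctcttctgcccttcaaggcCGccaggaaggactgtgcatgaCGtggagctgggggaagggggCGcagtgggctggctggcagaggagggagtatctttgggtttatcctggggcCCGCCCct
Timp3: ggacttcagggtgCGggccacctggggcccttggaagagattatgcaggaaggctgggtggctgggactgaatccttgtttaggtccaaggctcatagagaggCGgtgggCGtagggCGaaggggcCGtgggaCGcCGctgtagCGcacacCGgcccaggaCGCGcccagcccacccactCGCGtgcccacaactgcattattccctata
Timp4: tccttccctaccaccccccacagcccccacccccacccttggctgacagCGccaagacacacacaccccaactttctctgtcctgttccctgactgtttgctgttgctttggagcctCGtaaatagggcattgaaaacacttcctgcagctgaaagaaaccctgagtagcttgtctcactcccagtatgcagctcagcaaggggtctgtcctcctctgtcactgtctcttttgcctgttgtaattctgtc
The Timp1 stretch holds 6 CpG pairs and a GC box match (GGGCGG on the other strand) at its end, the whole Timp3 window 18 CpG pairs and 1 GC box match that begins 15 bases before the start, beyond the bases printed, and the Timp4 stretch 2 and no match.

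Timp1 (chrX:20870166-20874735, + strand, GRCm38), a secreted inhibitor of most MMPs, stood at 2.41, 4.67 and 8.49 CPM in EC1, EC2 and EC3 and at 181, 217 and 437 CPM in Mural1, Mural2 and Mural3. All 3 mural sets lay above all 3 EC sets. By class it was 458 CPM (95% interval 455 to 462) in fibroblast-like cells, 41.2 CPM in chondrocyte-like and 28.0 CPM in smooth muscle-like cells, 6.66 CPM in general capillary-like and 5.97 CPM in pericyte-like cells, and had no read in aerocyte-like or lymphatic-like cells. Reads were found in 85.8% of cells (95% interval 81.9 to 89.1%) among fibroblast-like cells and in 1.82% of general capillary-like cells (93.9% and 2.43% before thinning).

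Timp2 (chr11:118301069-118355740, − strand), which both blocks MMPs and takes part in the activation of the Mmp2 precursor by Mmp14, was read in every class. Its level was 2188 CPM in fibroblast-like, 1729.7 in chondrocyte-like, 1522 in lymphatic-like and 1233 in aerocyte-like cells, and 523, 474 and 378 CPM in smooth muscle-like, pericyte-like and general capillary-like cells. Per length it was the leading TIMP in both capillary classes, at 65.4% of the family's total in aerocyte-like cells and 77.4% in general capillary-like cells. By CPM Timp3 was above Timp2 in aerocyte-like cells (1364 against 1233 CPM), so the lead of Timp2 there rested on the division by length.

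Timp3 (chr10:86300372-86349506, + strand), the TIMP that binds to the matrix and also blocks several ADAMs and ADAMTS enzymes, stood at 256, 368 and 657 CPM in EC1 to EC3 and at 3478, 2304 and 3427 CPM in Mural1 to Mural3. It was high outside 1 class: 3943 CPM in fibroblast-like, 2648 in lymphatic-like, 2357 in chondrocyte-like, 1892 in pericyte-like, 1564 in smooth muscle-like and 1364 in aerocyte-like cells, but 169 CPM in general capillary-like cells. Within the capillary it separated both classes in every set, with 87.6, 192 and 228 CPM in general capillary-like cells of EC1 to EC3 and 1026, 1101 and 1658 CPM in aerocyte-like cells. Reads were in 82.9% of aerocyte-like and 21.6% of general capillary-like cells, so the general capillary-like level came from a minority of cells. Exons of Syn3, which holds Timp3 in an intron, cover 21.3% of its exon bases, and Syn3 itself did not exceed 23.3 CPM in any class.

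Timp4 (chr6:115241892-115252205, − strand), best known from heart muscle, was close to a single-class gene. It stood at 692 CPM (95% interval 681 to 704) in smooth muscle-like cells, 15.6 CPM in lymphatic-like cells and at or below 0.460 CPM in every other class, with no read in aerocyte-like or chondrocyte-like cells. Both sets that held smooth muscle-like cells in number showed it, at 829 CPM in Mural1 and 654 CPM in Mural2, with reads in 76.8% of the cells. The difference from fibroblast-like cells was 1506-fold (95% interval 1183 to 1949), a log2 difference of 10.56 that was 9.90 at Leiden resolution 0.5 and 9.91 with clustering on all variable genes. Timp4 lies in an intron of Syn2 on the opposite strand; Syn2 reached 122 CPM in lymphatic-like and 14.5 CPM in smooth muscle-like cells, and reads of both genes in the 1.53% of Timp4 exon bases they share cannot be told apart if the counting ignored strand.

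**Figure D2:**
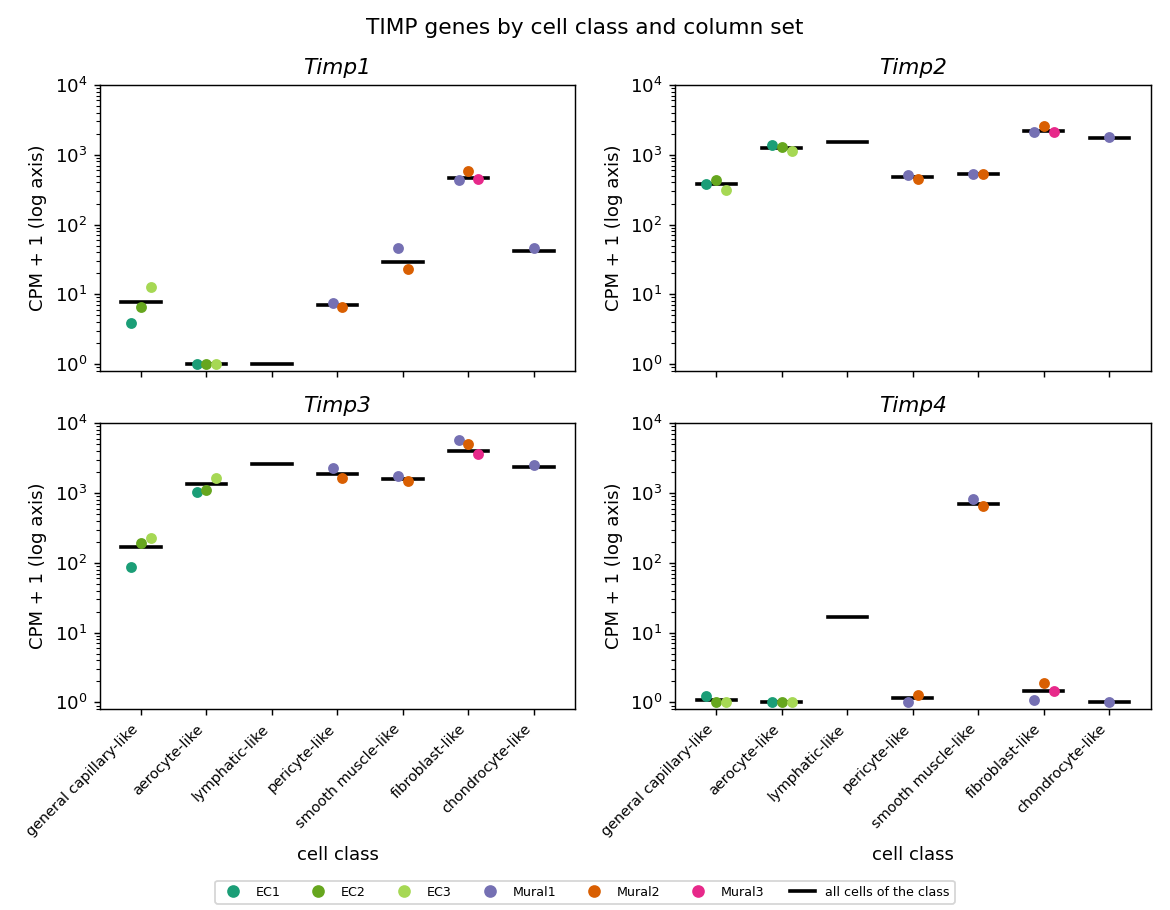
Level of Timp1, Timp2, Timp3 and Timp4 in each marker-defined class (CPM plus 1, log axis). Bars are sums over all cells of the class, and points are the sets with at least 10 of its cells. Timp4 reaches 692 CPM in smooth muscle-like cells and 15.6 CPM in the next class, while Timp2 and Timp3 are read in all 7 classes.

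The gelatinase Mmp2 (chr8:92827291-92853420, + strand), which cuts denatured collagen and basement membrane collagen, stood at 2.55, 0.817 and 10.7 CPM in EC1 to EC3 and at 1626, 838 and 2562 CPM in Mural1 to Mural3. The sets did not overlap. By class it was 2653 CPM (95% interval 2645 to 2662) in fibroblast-like and 2001 CPM in chondrocyte-like cells, against 62.7 CPM in pericyte-like, 52.1 in lymphatic-like, 32.2 in smooth muscle-like, 4.02 in general capillary-like and 0.785 in aerocyte-like cells. Reads were in 98.7% of fibroblast-like and in all chondrocyte-like cells.

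Mmp14 (chr14:54431612-54445364, + strand), the membrane MMP that activates the Mmp2 precursor, was spread more widely: 878 CPM in lymphatic-like, 764 in chondrocyte-like and 625 in fibroblast-like cells, 274 in pericyte-like and 173 in smooth muscle-like cells, and 51.9 and 7.72 CPM in general capillary-like and aerocyte-like cells. Cells with reads of Mmp14, Mmp2 and Timp2 together, the 3 parts of the surface activation complex, were 92.9% of fibroblast-like cells (95% interval 89.9 to 95.2%) and 76.2% of chondrocyte-like cells. They were 10.1% of smooth muscle-like and 5.71% of pericyte-like cells, and 1 of 658 general capillary-like cells. In fibroblast-like cells the product of the 3 separate shares was 92.7%, so the joint share was about what the single shares give. In lymphatic-like cells Mmp14 and Timp2 were high while Mmp2 had reads in 4.55% of cells.

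Mmp3 (chr9:7445822-7455975, + strand), stromelysin 1, which cuts proteoglycans, fibronectin and other MMP precursors, was uneven between sets and between cells of 1 class. The 250 bases before its start (chr9:7445572-7445821, + strand, GRCm38.p6, RefSeq) are printed for their motif matches, capitals marking as above.
Mmp3: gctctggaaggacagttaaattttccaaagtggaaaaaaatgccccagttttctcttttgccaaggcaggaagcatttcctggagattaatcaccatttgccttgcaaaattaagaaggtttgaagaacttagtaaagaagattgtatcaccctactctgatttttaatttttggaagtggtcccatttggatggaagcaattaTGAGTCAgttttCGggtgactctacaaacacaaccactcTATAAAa
They hold 1 CpG pair, a match to the AP-1 motif (TGANTCA, where N is any base) that begins 46 bases before the start, and a TATA motif (TATAAA) that begins 7 bases before it. A match is a run of letters and not a shown site.

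Mmp3 stood at 0.162, 4.71 and 1.51 CPM in EC1 to EC3 and at 150.5, 1575 and 2364 CPM in Mural1 to Mural3. Fibroblast-like cells held 2333 CPM (95% interval 2325 to 2341) and chondrocyte-like and smooth muscle-like cells 70.5 and 28.0 CPM, while pericyte-like cells had 5 reads in all and lymphatic-like cells none. Within fibroblast-like cells the median cell had 93.6 CPM, the 90th percentile 7496 CPM and the highest cell 35071 CPM. Reads were in 57.4% of these cells (75.6% before thinning), so the summed level came from part of the cells. By set, fibroblast-like cells held 356 CPM in Mural1, 3797 in Mural2 and 2359 in Mural3, and cells of cluster 6 alone 318, 4544 and 2661 CPM. In both, Mural1 was the lowest set and Mural2 the highest.

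A list of 16 genes that rise when tissue is dissociated (Fos, Egr1, Atf3 and the like) summed to 7043, 12451 and 17061 CPM in fibroblast-like cells of Mural1, Mural2 and Mural3, and to 4399.9, 10804 and 17393 CPM in cluster 6. The list was thus lowest in Mural1, as Mmp3 was, and highest in Mural3, where Mmp3 was not. Over classes the list was 23856 CPM in smooth muscle-like, 15594 in fibroblast-like, 2049 in pericyte-like and 1259 CPM in general capillary-like cells. Its part in the levels of Mmp3, Timp1 and Adamts1 was not tested. Timp1 moved less between sets, at 429, 576 and 445 CPM in fibroblast-like cells, and so did Mmp2, at 2543, 2301 and 2717 CPM.

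**Figure D3:**
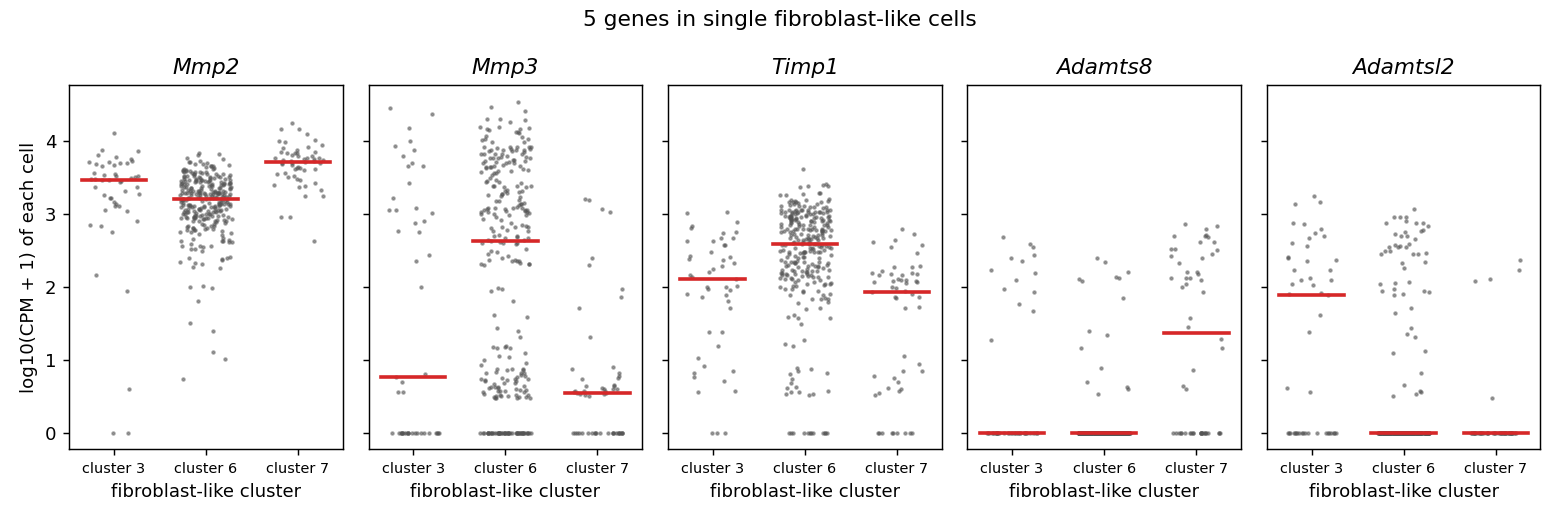
Each point is 1 fibroblast-like cell of cluster 3, 6 or 7, with its level of Mmp2, Mmp3, Timp1, Adamts8 or Adamtsl2 as log10 of CPM plus 1; red lines are medians. Mmp2 is read in nearly all cells and highest in cluster 7, whose median is 5268 CPM, whereas Mmp3 runs from 0 to 35071 CPM.

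**Figure D4:**
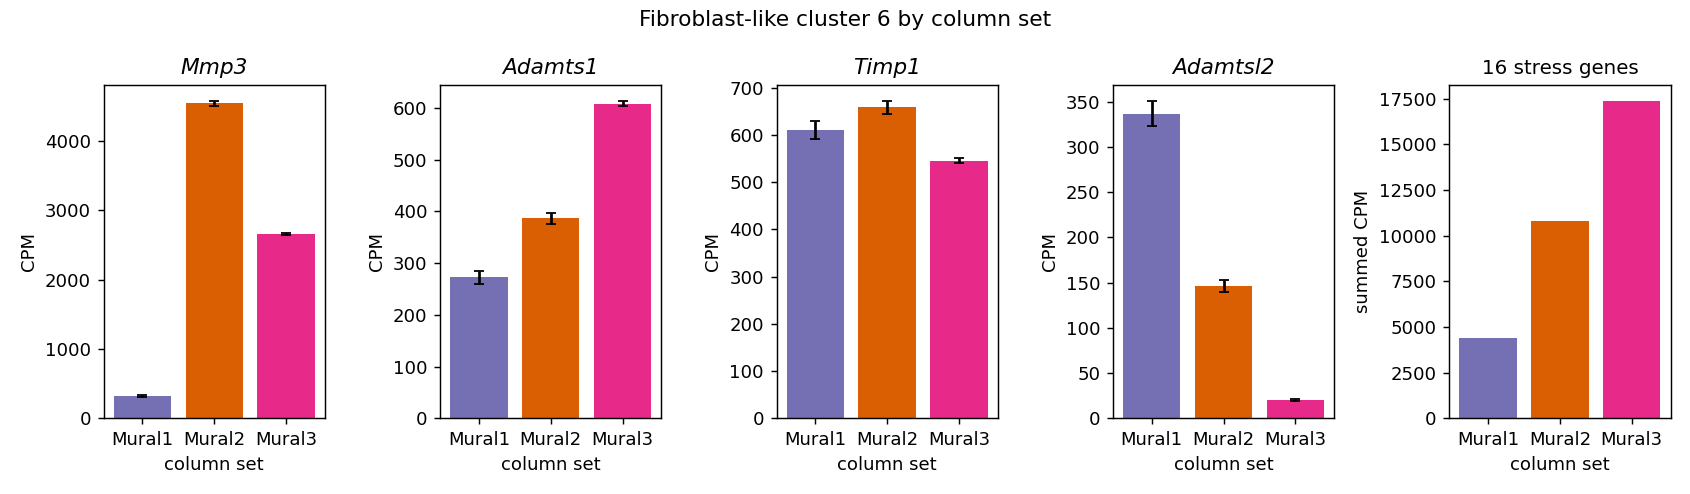
Level of Mmp3, Adamts1, Timp1 and Adamtsl2 (CPM, bars from 0 with 95% counting intervals) and the summed level of the 16 dissociation genes in cells of cluster 6, by mural set. Mmp3 is 318 CPM in Mural1 and 4544 in Mural2, Adamtsl2 falls from 337 CPM in Mural1 to 20.4 in Mural3, and Timp1 lies between 545 and 658 CPM.

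The remaining MMPs divided between stroma, muscle and endothelium. Mmp23, a small membrane MMP, was 385 CPM in fibroblast-like and 127 CPM in smooth muscle-like cells and 0.0614 CPM in general capillary-like cells. Mmp19 was 58.4 CPM and Mmp27 27.8 CPM in fibroblast-like cells, the latter with reads in 9.90% of them; Tmem198b shares 22.3% of Mmp19's exon bases. Mmp17, a membrane MMP held by a lipid anchor, was 68.1 and 64.7 CPM in smooth muscle-like cells of Mural1 and Mural2. Mmp15, another membrane MMP, was the endothelial member: 167, 89.9 and 85.4 CPM in EC1 to EC3 against 13.5, 26.1 and 4.10 CPM in Mural1 to Mural3. It stood at 128 CPM in general capillary-like and 55.7 CPM in aerocyte-like cells and had no read in the 22 lymphatic-like cells.

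Mmp3 lies in a row of MMP genes on chromosome 9, and its neighbours did not share its level. In fibroblast-like cells, where Mmp3 was 2333 CPM, Mmp27 was 27.8 CPM and the other 8 genes of the row (Mmp1a, Mmp1b, Mmp7, Mmp8, Mmp10, Mmp12, Mmp13 and Mmp20) lay between 0.0279 and 0.599 CPM. Of these, Mmp1a, Mmp1b, Mmp7, Mmp10, Mmp12, Mmp13 and Mmp20 also have an AP-1 match in the window of RefSeq. The motif was in 12 of 56 windows of members, matched for 51 genes, and in 6.75% of all 32851 windows, counting both strands.

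Other MMPs were low or rested on few cells. Mmp11 was 67.7 CPM in pericyte-like, 53.9 in fibroblast-like and 51.1 in smooth muscle-like cells, and its 74.5 CPM in lymphatic-like cells came to 72.7% from 1 cell. Mmp16 and Mmp28 did not exceed 21.1 and 11.3 CPM in any class.

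Among the ADAMs, Adam10 and Adam17, the main sheddases of Notch receptors and of growth factor and cytokine precursors, were read in all classes. Adam10 was 624 CPM in lymphatic-like, 165 in general capillary-like, 136 in pericyte-like and 126 in aerocyte-like cells and 91.7, 65.4 and 53.8 CPM in smooth muscle-like, chondrocyte-like and fibroblast-like cells. Reads were in 86.4% of cells (95% interval 65.1 to 97.1%) among lymphatic-like and 28.0% of general capillary-like cells. Adam17 was between 28.0 and 159 CPM in all classes, and exons of Iah1 overlap it. Tspan14, a tetraspanin that carries Adam10 to the surface, was read together with Adam10 in 45.5% of lymphatic-like and 25.0% of aerocyte-like cells. The products of the single shares were 47.1% and 19.4%.

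Adam15, an ADAM known from endothelial junctions, stood at 291, 259 and 213 CPM in EC1 to EC3 and 122, 86.1 and 112 CPM in Mural1 to Mural3. In general capillary-like cells it was 343, 306 and 272 CPM by set, in aerocyte-like cells 45.3 CPM and in lymphatic-like cells 6.67 CPM. An annotated gene outside the count table, 4731419I09Rik, covers 20.6% of its exon bases. Adam33, a gene of airway smooth muscle and mesenchyme, was 319 and 373 CPM in smooth muscle-like cells of Mural1 and Mural2, 50.8 CPM in pericyte-like and 31.3 CPM in fibroblast-like cells, and 3.12 CPM or lower in the other classes. Adam9 and Adam19 were broader: Adam9 lay between 59.8 and 183 CPM in the 7 classes and Adam19 between 13.4 and 106 CPM. Adam12, an ADAM of muscle and mesenchyme, was 67.0 CPM in lymphatic-like cells and 8.21 CPM or lower elsewhere. Adam23, which lacks protease activity, was 63.2 CPM in fibroblast-like and 34.5 CPM in general capillary-like cells. Adam5, Adam11 and Adam22 reached 23.0, 29.2 and 16.1 CPM at most.

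Adam3 (chr8:24677225-24725852, − strand), a gene known from sperm, was 86.7 CPM (95% interval 81.5 to 92.1) in pericyte-like cells, with reads in 28.6% of them, and 0.439 CPM or lower in every other class. Its level there was 21.3 CPM in Mural1 and 133 CPM in Mural2, and the highest cell gave 20.9% of the reads. The ADAM genes on either side did not share it, at 0.829 CPM for Adam5 and 2.82 for Adam18 in the same cells. Beyond Adam5 in the same row lie Adam32, at 0.415 CPM, and then Adam9, at 143 CPM. Both are on the − strand, and the 3′ end of Adam9 at base 24949611 is close to the start of Adam32 at 24948804. An annotated gene outside the count table overlaps 6.76% of the exon bases of Adam3.

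Adamts1 (chr16:85793827-85803113, − strand), an enzyme that cuts versican and aggrecan and a gene of rapid stress responses, was shared by endothelium, muscle and stroma. It was 726 CPM in smooth muscle-like, 556 in fibroblast-like and 521 in general capillary-like cells, 66.3 in chondrocyte-like, 28.0 in pericyte-like, 21.8 in aerocyte-like and 0.342 CPM in lymphatic-like cells. By set it was 539, 430.3 and 615 CPM in general capillary-like cells and 226, 471 and 607 CPM in fibroblast-like cells of Mural1 to Mural3. Adamts5, its neighbour on chromosome 16 and also a proteoglycan-cutting enzyme, was 226 CPM in fibroblast-like, 205 in chondrocyte-like and 94.9 in smooth muscle-like cells and 4.57 CPM in general capillary-like cells.

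Adamts2, which removes the amino-terminal propeptide of fibrillar procollagens, was 1335 CPM (95% interval 1329 to 1341) in fibroblast-like cells, 174 in chondrocyte-like and 136 CPM in smooth muscle-like cells and 1.62 CPM in general capillary-like cells. Reads of Adamts2 and of its substrate gene Col3a1 were found together in 98.7% of fibroblast-like and 53.6% of smooth muscle-like cells. Col3a1 is on the fibroblast marker list that named the class and was read in all 394 fibroblast-like cells. The products of the single shares were 98.7% and 52.4%, so the joint shares were about what the single shares give. The other procollagen enzymes were lower, Adamts3 at 111 CPM in chondrocyte-like cells and Adamts14 at 70.0 CPM in pericyte-like cells and 56.6 CPM in cluster 7.

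Adamts8 (chr9:30942562-30963838, + strand) and Adamts15 (chr9:30899155-30922452, − strand) lie beside each other on chromosome 9 and both led in smooth muscle-like cells. Adamts15 was 477 and 313 CPM there in Mural1 and Mural2, and 110.3 CPM in fibroblast-like cells. Adamts8 was 475 and 115 CPM in the same cells and 31.5 CPM in fibroblast-like cells. In general capillary-like cells they stood at 2.36 and 1.04 CPM. Adamts10, a microfibril-binding member, was 431 and 336 CPM in pericyte-like cells of Mural1 and Mural2, 172 CPM in fibroblast-like and 25.4 CPM in general capillary-like cells. Adamts9, another proteoglycan-cutting enzyme, was highest in general capillary-like cells (49.4 CPM, reads in 11.4% of them) and Adamts12 in pericyte-like and smooth muscle-like cells (56.9 and 53.1 CPM), while Adamts4, Adamts6 and Adamts7 did not exceed 25.0, 18.8 and 10.9 CPM in any class.

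The 5 ADAMTS-like genes differed in the classes that carried them. Adamtsl3 was 450.2 and 398 CPM in pericyte-like cells of Mural1 and Mural2, with reads in 75.7% of them, and 365 CPM in chondrocyte-like cells, against 5.30 CPM in smooth muscle-like cells. Adamtsl5 was 234, 156 and 191 CPM in aerocyte-like cells of EC1 to EC3 and 129.5, 129 and 106 CPM in fibroblast-like, smooth muscle-like and pericyte-like cells, against 8.32 CPM in general capillary-like cells. Adamtsl1 was 92.1 CPM in fibroblast-like, 90.8 in lymphatic-like and 65.7 CPM in smooth muscle-like cells and 1.33 CPM in pericyte-like cells. Adamtsl4, which binds fibrillin microfibrils, was 209.7 CPM in pericyte-like, 130.3 in fibroblast-like and 103 CPM in smooth muscle-like cells. Adamtsl2 was 381, 148 and 24.2 CPM in fibroblast-like cells of Mural1, Mural2 and Mural3, highest in Mural1 and lowest in Mural3.

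The comparison of the Cldn5 group with the mural sets set cells sorted by an endothelial reporter against cells sorted by pericyte, smooth muscle and fibroblast reporters. Of the 374 cells of Mural3, 309 were fibroblast-like and 1 was smooth muscle-like, while none was called pericyte-like. Against Mural3, the Cldn5 group was higher in 1 member (Mmp15) and lower in 15, where 4.62% of all genes were called in either direction, 2.04% as higher in the Cldn5 group and 2.58% as higher in Mural3. Mmp15 was 27.2-fold (95% interval 25.0 to 29.7) higher in the Cldn5 group. The 15 were Mmp2, Mmp3, Mmp11, Mmp14, Mmp19 and Mmp23, Timp1 and Timp3, Adamts2, Adamts5, Adamts10 and Adamts15, and Adamtsl1, Adamtsl3 and Adamtsl4; Timp3 was 7.90-fold (95% interval 7.84 to 7.96) and Mmp14 8.36-fold (95% interval 8.20 to 8.52) higher in Mural3. Over the 34 members with a mean of 10 CPM the median log2 difference (Cldn5 group minus Mural3) was -3.02, and over all 9746 such genes 0.34. The mean is that of both sides, so here and below a gene can enter such a median on its higher side alone. The call of Mmp11 did not hold without EC1 (log2 difference -2.24 with it, -1.73 without), and the difference was -2.89 without EC2. Values near 0 in the EC sets moved with single sets: Mmp2 from -9.07 to -10.63 without EC3, Mmp3 from -10.05 to -11.39 without EC2, and Adamts15 from -4.72 to -6.11 without EC1. So did Adamtsl1 (to -4.57), Adamtsl3 (to -5.33) and Mmp19 (to -5.80) without EC1, Mmp23 (to -11.28) and Mmp19 (to -4.42) without EC2 and Adamts5 (to -6.15) without EC3. Mmp15 was 6.44 on the log2 scale without the cells of clusters 4 and 9, against 4.77 with them, and Mmp23 -12.84 against -10.42.

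Against Mural1 and Mural2 together, 1 member was higher in the Cldn5 group and 12 were lower (4.24% of all genes called in either direction, 1.59% higher in the Cldn5 group and 2.65% higher in Mural1 and Mural2). This comparison shares the Cldn5 cells with the one above. Mmp15 was 5.24-fold (95% interval 5.00 to 5.48) higher in the Cldn5 group; Timp3 was 6.34-fold (95% interval 6.29 to 6.39), Timp1 38.3-fold (95% interval 35.8 to 41.1) and Adamts10 6.34-fold (95% interval 6.14 to 6.55) higher in Mural1 and Mural2. Adam33, at 0.269 against 91.2 CPM, passed here and not against Mural3, where the level was 30.7 CPM. The Adam33 level of the Cldn5 group was 0.0702 CPM without EC1 and 0.416 CPM without EC2. Without Mural2, the calls of Adam33 and Adamts15 were lost although their log2 differences stayed near those with it (-8.03 against -8.40 and -5.00 against -4.86). In the same setting the log2 difference of Mmp15 went from 2.39 to 3.05; it was 3.82 without the cells of clusters 4 and 9. Without Mural1 the call of Mmp14 was lost (log2 difference -2.29 with it, -1.94 without). Single EC sets also moved Adamtsl3 (from -5.39 to -6.07) and Adamts15 (to -6.25) without EC1, Mmp23 (from -9.55 to -10.41) without EC2, and Mmp2 (from -7.90 to -9.46) and Adamts5 (from -4.46 to -5.10) without EC3. Adamtsl3 was -5.99 without Mural2, and Mmp23 -12.10 without the cells of clusters 4 and 9.

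Between mural sets, Adam33 was higher in Mural1 and Mural2 and 8 members (Mmp2, Mmp3, Mmp19, Timp1, Adam23, Adamts2, Adamts5 and Adamtsl1) were higher in Mural3 at the 2-fold rule; 3.05% of all genes were called in either direction, 2.07% as higher in Mural1 and Mural2 and 0.975% as higher in Mural3. The median log2 difference of the 38 members with a mean of 10 CPM was -0.26, against 0.22 over 9941 genes. Most of these calls rested on 1 set or on a small margin. Mmp3 was 150.5 CPM in Mural1, 1575 in Mural2 and 2364 in Mural3, a log2 difference of -0.59, not called, without Mural1 and of -3.97 without Mural2. Without Mural2 the calls of Adam33, Mmp2, Adamts2 and Adamts5 were lost and Adam23 and Adamtsl1 went from -1.25 and -1.99 to -2.30 and -3.29, and without Mural1 the call of Adam23 was lost. Without doublet-like cells the calls of Timp1 (log2 difference -0.98 against -1.10), Mmp2 (-0.99 against -1.17), Adamts2 and Adamts5 were lost, and those of Adamts2 and Adamts5 also without the cells of clusters 4 and 9. Fibroblast-like cells were 40 of 128 cells in Mural1, 45 of 233 in Mural2 and 309 of 374 in Mural3, and fewer cells of a type and less RNA of a gene in each cell cannot be told apart in sums over a set.

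Pericyte-like and smooth muscle-like cells, the 2 contractile mural types, differed in 11 members, 2 higher in pericyte-like cells (Adam3 and Adamtsl3) and 9 higher in smooth muscle-like cells (Timp4, Mmp17, Mmp23, Adam33, Adamts1, Adamts5, Adamts8, Adamts15 and Adamtsl1), where 4.07% of genes outside the clustering were called, 2.06% as higher in pericyte-like and 2.01% as higher in smooth muscle-like cells. Adam33 was 6.97-fold (95% interval 6.42 to 7.59) and Adamts15 268-fold (95% interval 165 to 469) higher in smooth muscle-like cells; the log2 difference of Adamts15 was -8.07, and -9.30 without doublet-like cells. Adamtsl3 was 79.1-fold (95% interval 65.2 to 97.0) higher in pericyte-like cells, and 5.32-fold higher there than in fibroblast-like cells, a call lost under TMM factors (log2 difference 1.81 against 2.41). Without Mural1 all 11 calls held, with the log2 difference (pericyte-like minus smooth muscle-like) of Adamts1 going from -4.69 to -7.98, of Adamts5 from -3.33 to -7.59, of Mmp17 from -2.55 to -5.24 and of Adamts8 from -4.29 to -3.23. Adamtsl1, Mmp23, Timp4 and Adamtsl3 moved from -5.63, -5.45, -11.44 and 6.31 to -6.53, -6.07, -10.56 and 6.98.

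Against fibroblast-like cells, pericyte-like cells were higher in Adam3 and Adamtsl3 and lower in 12 members (4.32% of genes called in either direction, 2.25% higher in pericyte-like and 2.07% in fibroblast-like cells), and smooth muscle-like cells were higher in Timp4, Adam33, Mmp17 and Adamts8 and lower in 8 (2.93% called in either direction, 1.49% higher in smooth muscle-like and 1.45% in fibroblast-like cells). These 2 comparisons share the fibroblast-like cells. The 12 were Mmp2, Mmp3, Mmp19, Mmp23, Timp1, Timp2, Adam23, Adamts1, Adamts2, Adamts5, Adamts15 and Adamtsl1, and the 8 were Mmp2, Mmp3, Mmp19, Timp1, Timp2, Adam23, Adamts2 and Adamtsl3. Mmp2 was 42.3-fold (95% interval 39.4 to 45.5) higher in fibroblast-like than in pericyte-like cells and Timp2 4.61-fold (95% interval 4.49 to 4.74); against smooth muscle-like cells Timp2 was 4.18-fold (95% interval 4.10 to 4.27) and Timp1 16.4-fold (95% interval 15.1 to 17.9) higher. Adam33 was 11.3-fold (95% interval 10.9 to 11.8) higher in smooth muscle-like cells. Without Mural2 the pericyte-like call of Adam3 was lost (21.3 CPM in those that remained). Without Mural1 the smooth muscle-like call of Adamts8 was lost (122 CPM), and without Mural3 those of Adam23 and Mmp19 in both comparisons and of Adamtsl1 against pericyte-like cells. The log2 differences of Mmp19 were as large without Mural3, -3.96 against -3.87 for pericyte-like and -8.24 against -8.18 for smooth muscle-like cells. Several low values on the pericyte-like side moved with a set: Adamts2 was 23.3 CPM without Mural1 and 57.1 without Mural2, Adamts1 3.27 and 62.8, and Mmp19 0.142 and 9.38 CPM. Adam23, Adamts5 and Mmp3 were 5.40, 0.568 and 0.710 CPM without Mural1 and 0, 21.9 and 0 CPM without Mural2. On the smooth muscle-like side, the log2 difference of Mmp3 went from -6.38 to -8.03 without doublet-like cells, and those of Adamtsl3, Mmp2 and Mmp17 from -3.90, -6.36 and 3.92 to -4.69 and -6.95 without Mural1 and 3.29 without Mural3.

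The 756 endothelial-like cells were lower than fibroblast-like cells in 15 members and higher in Mmp15 (4.68% of genes called in either direction, 2.07% higher in endothelial-like and 2.62% in fibroblast-like cells). The 15 carry the names given for Mural3, with which this comparison shares most of its cells. Timp3 was 8.96-fold (95% interval 8.89 to 9.03), Mmp14 8.30-fold (95% interval 8.14 to 8.46) and Adamts10 5.56-fold (95% interval 5.39 to 5.73) higher in fibroblast-like cells. Without Mural3 the calls of Mmp11, Mmp19 and Adamtsl1 were lost, Adamtsl1 standing at 32.5 CPM in the fibroblast-like cells that remained. The log2 differences of Mmp11 and Mmp19 were as large without Mural3 (-2.28 against -2.25 and -5.10 against -5.02). Without EC1 that of Mmp11 was lost, and Mmp15 went from a log2 difference of 6.62 to 7.71 without Mural3.

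Within the capillary, aerocyte-like cells were higher than general capillary-like cells in Timp3 and Adamtsl5 and lower in Adamts1 and Adam15, 4 of 82 members where 0.948% of genes were called, 0.437% as higher in aerocyte-like and 0.51% as higher in general capillary-like cells. Timp3 was 8.05-fold (95% interval 7.91 to 8.19) and Adamtsl5 22.8-fold (95% interval 21.3 to 24.4) higher, and Adam15 6.78-fold (95% interval 6.38 to 7.20) and Adamts1 23.9-fold (95% interval 22.0 to 26.1) lower in aerocyte-like cells. All 4 calls held without each EC set. The size of the difference moved for Adamts1, which was 0.198, 0.142 and 43.3 CPM in aerocyte-like cells of EC1, EC2 and EC3: its log2 difference was -4.58 with EC3 and -10.91 without. Adam15 went from -2.76 to -3.37 without EC3, and Adamtsl5 from 4.51 to 5.40 without EC1. The median over 18 members with a mean of 10 CPM was 0.21, and over 4468 genes -0.17. Adam4 entered this count on 1 aerocyte-like cell.

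Lymphatic-like cells differed from the 734 blood endothelial-like cells in 7 members, where 3.03% of genes were called, 1.6% as higher in lymphatic-like and 1.43% as higher in blood endothelial-like cells. Timp3 was 7.42-fold (95% interval 7.29 to 7.56), Mmp14 19.5-fold (95% interval 18.8 to 20.2), Adam12 10.1-fold (95% interval 9.00 to 11.4) and Adamtsl1 21.0-fold (95% interval 18.7 to 23.5) higher in lymphatic-like cells. Adam15 was 39.9-fold (95% interval 29.2 to 56.1) lower, and Adamts1 had 2 reads in all (0.342 CPM). Mmp15 had no read and was 227-fold lower with the class set to a floor of 3 reads (lower 95% limit 185). With 22 cells, 7 from EC1, 6 from EC2 and 9 from EC3, no value by set is given. The median over 26 members with a mean of 10 CPM was 1.34, and over 4602 genes 0.11. Members could enter on their lymphatic-like level alone, as Adamts18 did on 1 cell, so this median shows no shift of the family.

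Chondrocyte-like cells, most of them from 1 set, were compared with fibroblast-like cells and were higher in Adamts3 and Adamtsl3 and lower in 10 members (2.82% of genes called in either direction, 1.3% higher in chondrocyte-like and 1.51% in fibroblast-like cells). Adamts3 was 7.62-fold (95% interval 7.12 to 8.15) and Adamtsl3 4.63-fold (95% interval 4.47 to 4.79) higher, while Timp1 was 11.1-fold (95% interval 10.2 to 12.2), Adamtsl5 34.6-fold (95% interval 26.1 to 46.9) and Mmp3 33.1-fold (95% interval 31.0 to 35.4) lower in chondrocyte-like cells. Mmp2 and Mmp14 did not pass in either direction. Without Mural3 the calls of Adam23, Adamtsl1 and Mmp19 were lost, Adamts3 went from a log2 difference of 2.93 to 2.22 and Adamts1 from -3.07 to -2.44; without Mural2 Adamtsl1 went from -5.16 to -8.56. Since 37 of the 42 cells were from Mural1, the comparison was also made within Mural1, against its 40 fibroblast-like cells, an alternative chosen after seeing the data. There 2 members were higher and 8 lower in chondrocyte-like cells, with Adamts3 at 111 against 20.2 CPM, Adamtsl3 at 344 against 52.9 CPM, Timp1 at 45.4 against 429 CPM and Adamtsl5 at 4.07 against 119 CPM. The share of all genes called was not computed within Mural1, so these counts describe the members and show no trait of the family. Mmp3 was 60.2 against 356 CPM within Mural1, a log2 difference of -2.57 where the comparison over all sets had -5.05, and Adamts1 had -2.04. Adam23, Adamtsl1 and Mmp19 were not called there, and Adamtsl2 was (0.606 against 381 CPM).

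The 3 clusters of fibroblast-like cells differed in 9 or 10 members each from the other fibroblast-like cells, and Timp2, Timp3, Mmp14 and Adamts2 were called in none of them; without Mural3 Adamts2 and Timp2 were called in clusters 3 and 6, and with TMM factors Timp2 in cluster 6. Cluster 7 against the other fibroblast-like cells was higher in Mmp2, Adamts8 and Adamts14 and lower in 7 members (2% of genes called in either direction, 1.15% higher and 0.847% lower in cluster 7). Mmp2 was 2.70-fold (95% interval 2.68 to 2.72), Adamts8 13.0-fold (95% interval 12.2 to 13.8) and Adamts14 6.57-fold (95% interval 6.04 to 7.14) higher, and Mmp3 19.9-fold (95% interval 19.2 to 20.7), Adamtsl3 5.85-fold (95% interval 5.23 to 6.56), Timp1 4.25-fold (95% interval 4.08 to 4.42) and Adamts5 3.83-fold (95% interval 3.63 to 4.05) lower in cluster 7. Of its 56 cells 53 were from Mural3, so this cluster without Mural3 was too small to compare. The call of Mmp23, at 198 CPM, was lost without Mural2.

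Cluster 6 was higher in 7 members (Mmp3, Mmp23, Timp1, Adam23, Adamts5, Adamtsl1 and Adamtsl3) and lower in Mmp2, Adamts8 and Adamtsl2 (1.9% of genes called in either direction, 0.61% higher and 1.29% lower in cluster 6). Timp1 was 3.40-fold (95% interval 3.32 to 3.49) higher, at 609.9, 658 and 545 CPM in the cluster's cells from Mural1 to Mural3, and its call held without each set. Mmp23 was 3.15-fold (95% interval 3.06 to 3.24) higher. Without Mural3 the calls of Adamtsl3 (log2 difference 0.61 against 1.94), Adamtsl1, Adamts5, Adamts8 and Adamtsl2 were lost, and Mmp3, Mmp23 and Adam23 went from 1.22, 1.65 and 1.42 to 2.93, 2.72 and 3.34. Without Mural1 the call of Adamtsl2 was lost, as it was with TMM factors and with means over cells, and Adamtsl3 went to 2.58.

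Cluster 3 was higher in Adamtsl2, Adamts17, Adamts8 and Adam19 and lower in 5 members (2.72% of genes called in either direction, 1.83% higher and 0.884% lower in cluster 3). Adamtsl2 was 4.88-fold (95% interval 4.69 to 5.08) higher, and 495 CPM in the cluster's cells of Mural1 and 86.0 CPM in those of Mural3; its log2 difference was 2.29 in all, 1.70 without Mural1 and 1.04 without Mural3. Adamts17 was 10.6-fold (95% interval 9.59 to 11.7) higher, a call lost without Mural3, when its level was 29.2 CPM and its log2 difference 4.71 against 3.41. Adam19 (1.01) and Adamts8 (1.02) lay just past the 2-fold rule: Adam19 lost its call without Mural1 and without doublet-like cells, Adamts8 without Mural3, and both with TMM factors (0.82 and 0.84) and with means over cells (0.85 and 0.99), which left 2 higher members. Adam19 was 3.29 without Mural3. Lower calls of Adam23 and Adamtsl1 were lost without Mural1, of Adamtsl3 without Mural2 or Mural3 and of Adamtsl1 also without Mural3. Timp1 (219 CPM) and Mmp23 (91.2 CPM) kept theirs without each set. These clusters share their cells as each other's comparison groups.

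Genes that work with the members were read from 6 lists. Among 19 regulators of metalloproteases, the Cldn5 group was higher than Mural3 in 1, Tspan14 (292 against 38.3 CPM), and lower in 3, Lrp1, the endocytic receptor that clears MMPs and TIMPs (12.0 against 1742 CPM), Reck, a membrane-anchored inhibitor (18.6 against 191 CPM), and Tspan5 (10.7 against 112 CPM). Pericyte-like cells were higher than smooth muscle-like cells in 2, Reck (1081 against 142 CPM) and Frmd8 (210.0 against 51.9 CPM), a cofactor of the iRhom proteins that carry Adam17. Lymphatic-like cells were higher than blood endothelial-like cells in 3, Pcsk6 (683 against 0.790 CPM), a proprotein convertase, Tspan5 (141 against 5.89 CPM) and Frmd8 (256 against 63.5 CPM). Aerocyte-like and general capillary-like cells differed in none of the 19.

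Of 16 matrix and plasma substrates, 9 were lower and 1 was higher in the Cldn5 group than in Mural3, with Dcn at 6.93 against 26119 CPM, Col1a1 at 2.44 against 6559 CPM and Col3a1 at 6.25 against 12529 CPM. The comparisons of classes leave out marker genes, since these named the classes, and cover 8 of the 16: Eln (52.8 against 2134 CPM) and Vcan (14.3 against 109 CPM) were lower in pericyte-like than in smooth muscle-like cells, Fbn1 was higher in lymphatic-like than in blood endothelial-like cells (224 against 19.2 CPM), and Fn1 (7995 against 829 CPM) and Fbn2 (113 against 3.22 CPM) were higher in chondrocyte-like than in fibroblast-like cells. Of 12 related metzincins and cofactors, Pcolce (3.64 against 2409.6 CPM), Pcolce2 (43.3 against 1138 CPM) and Bmp1 (53.9 against 232 CPM), which process procollagen with Adamts2, were lower in the Cldn5 group than in Mural3. Pcolce2 was also the 1 gene of that list that differed within the capillary, at 274 against 2.99 CPM in aerocyte-like and general capillary-like cells. Thsd4, an ADAMTS-like gene outside the name rule, was 94.3 against 401 CPM in pericyte-like and smooth muscle-like cells and 657 against 5.31 CPM in chondrocyte-like and fibroblast-like cells.

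Of 25 proteins shed by Adam10 or Adam17, 7 were higher and 1 was lower in the Cldn5 group than in Mural3, with the junction gene Cdh5 at 2236 against 6.54 CPM, the receptors Tie1 and Notch4 at 779 against 3.66 CPM and 333 against 1.87 CPM, and the stem cell factor gene Kitl at 534 against 27.3 CPM. Of the 21 that are not marker genes, aerocyte-like cells were higher than general capillary-like cells in 3, Cx3cl1 (534 against 86.7 CPM), Cxcl16 (270.4 against 47.2 CPM) and Kitl (1789 against 336 CPM), and lymphatic-like cells were lower than blood endothelial-like cells in Kitl, Jam2 and Notch4 and higher in Notch2 (252 against 28.2 CPM). Among 9 genes of the plasminogen system, which activates several MMP precursors, Serpine2 was lower in the Cldn5 group than in Mural3 (5.31 against 239 CPM). Pericyte-like cells were higher than smooth muscle-like cells in Plat (548 against 11.5 CPM) and lower in Plaur (5.14 against 70.8 CPM), aerocyte-like cells were higher than general capillary-like cells in Plaur (256 against 54.1 CPM), and lymphatic-like cells had more Plau (308 against 6.42 CPM). Of the 16 dissociation genes, 11 were lower in the Cldn5 group than in Mural3 and 11 were lower in pericyte-like than in smooth muscle-like or fibroblast-like cells; their part in the calls of these comparisons was not tested.

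The CpG content of the RefSeq windows was set beside the number of classes in which a member was read. The 8 matched members with reads in 25% of the cells of 4 to 7 classes had a median ratio of observed to expected CpG pairs of 0.727 (range 0.527 to 0.866), the 13 with 1 to 3 classes 0.561 (0.113 to 0.983) and the 30 with none 0.139 (0 to 0.982). The ranges overlapped. Over all windows the median was 0.373 and over those of members 0.374. Timp3 and Timp2, read in 6 and 7 classes, had ratios of 0.672 and 0.744, and Mmp14 0.527. The 5 matched members read in 1 class lay at both ends, with Mmp3 at 0.113, Timp4 at 0.125, Mmp11 at 0.572, Adam23 at 0.901 and Adamts3 at 0.922. The GC box (GGGCGG) was in 24 of the 56 member windows and 32.7% of all windows, the TATA motif in 11 and 12.4%, and the CArG box, the motif of serum response factor, in none and 1.47%; CpG pairs and the GC box overlap in their letters.

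**Figure D5:**
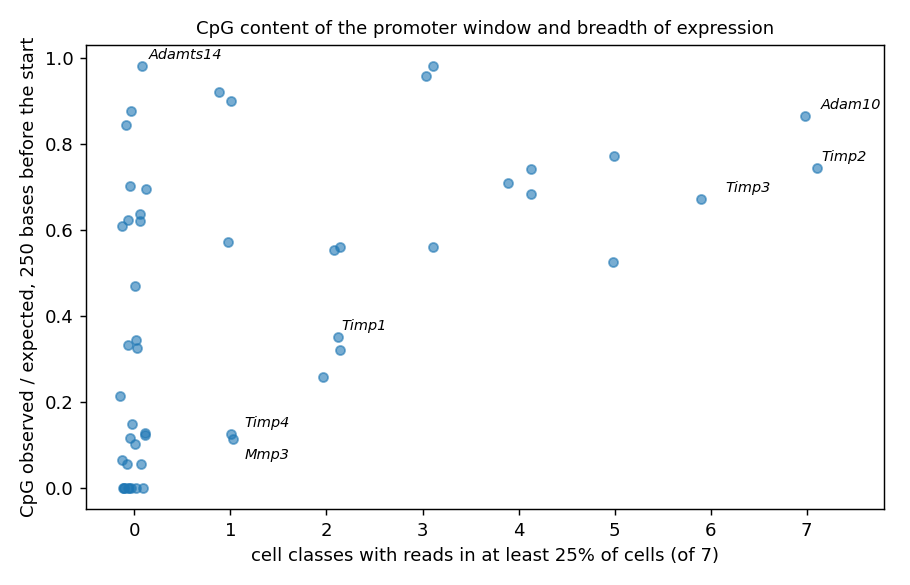
Ratio of observed to expected CpG pairs in the 250 bases before the start of each matched member (one point each, moved slightly sideways where they coincide), against the number of marker-defined classes with reads in 25% of cells. The points with 4 to 7 classes lie between 0.527 and 0.866, and those with no class between 0 and 0.982.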

How the data were processed

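Single-cell SMART-seq2 libraries of sorted mouse lung cells were compared. The deposited table holds whole-number read counts per gene; per the submitters' processing notes the tools include STAR 2.4.2a and the build mm10. The counting program, its use of strand, the annotation and the cell filter are not given in the sources used here. A further deposited table holds a score, which equals the count scaled to 500000 reads a cell as a whole number (33009792 values, largest difference 0), used in an alternative only.

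All 1504 cells were kept, the shallowest with 100229 reads. Clustering (scanpy 1.11.5, igraph 0.11.9; 2000 variable genes, 30 components, 15 neighbours, Leiden resolution 1) left out 10989 genes, the members, the 6 pathway lists and a random part among them, so comparisons of classes cover the 10975 of these that are not marker genes and comparisons of populations 21947. Clusters were named from 21 marker lists (166 of 175 genes measured), with at least 40% of their own list, and left unnamed where epithelial or leukocyte markers reached 50%. No doublet caller was run; 104 cells with 5 endothelial and 5 mural or fibroblast markers were kept. With 1 sample a population the size rule described in the report stood in for a test; it was tested on simulated data. Members that reached 10 CPM are named, and values by set are given for the highest; up to 4 genes of a pathway list are named. The members and lists were chosen with earlier results of these data known.

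Exon places and lengths are from GENCODE mouse release M21 (GRCm38; 82 of 82 members placed), and windows before gene starts from RefSeq (GRCm38.p6; 51 members). Alternatives were TMM factors (edgeR 4.0.16), median-ratio factors (DESeq2 1.42.0), means over cells, other thinning, other clusterings, and leaving out sets, doublet-like cells or unnamed clusters. Python 3.11.15, numpy 2.4.6, scipy 1.17.1, pandas 2.3.3, matplotlib 3.10.9 and R 4.3.3 were used.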

Additional observations from a re-analysis of the deposited data

How the results depend on the processing

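Over 143 calls of a member in a comparison and 124 pairs of a comparison and a setting, 1403 re-computed calls gave no reversal of direction. Part of these could not reverse. The 143 calls with a minimum of 10 CPM and the 38 with no minimum share of cells changed the filter alone and left the levels as they were. TMM factors shift all genes of a comparison alike, by less than the fold rule, so they could not reverse a call either. The count of members that differed between Mural1 and Mural2 together and Mural3 was the 1 count that moved by over 1.5 times: it was 9, and became 14 with TMM factors, 14 with median-ratio factors and 5 without doublet-like cells. The cause was not tested. TMM factors moved the median of all genes by -0.36 on the log2 scale there, by -0.42 in the comparison of the Cldn5 group with Mural3, and by -0.60 between pericyte-like and fibroblast-like cells. Without division by length the TIMP share of all member messages was 74.4% in aerocyte-like cells (73.4% with it), 62.2% in lymphatic-like (62.0%), 47.9% in pericyte-like (43.5%), 47.1% in chondrocyte-like (42.8%), 43.9% in smooth muscle-like (41.9%), 40.2% in fibroblast-like (34.9%) and 25.2% in general capillary-like cells (30.1%). Member and class pairs with reads in 25% of cells were 88, 92 and 95 of 574 after thinning to 25000, 50000 and 100000 reads. Comparisons between clusters of fibroblast-like cells were not run under other clusterings, nor the lymphatic-like comparison without each EC set, since fewer than 20 cells remain. No paired analysis was possible because the populations carry no replicate numbers and each counts as 1 sample. Depth limits members with few cells or reads, such as those led by 1 cell.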

Other observations

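Reads of Mmp8, Mmp9, Mmp12 and Adam8, enzymes known from neutrophils and macrophages, lay mostly in the 72 cells of cluster 9, which has leukocyte markers and was given no cell type. That cluster held 86.6% of all Mmp9 reads, 93.8% of those of Mmp12, 78.6% of those of Mmp8 and 57.1% of those of Adam8, at 109.9, 103, 72.2 and 118 CPM. S100a8 and S100a9 stood at 1056 and 904 CPM and Ptprc at 668 CPM in the same cells. In EC1 the level of Mmp9 was 32.9 CPM and 98.3% of its reads came from 1 cell, against 0.539 and 0.248 CPM in EC2 and EC3. Mmp8 stood at 19.8 CPM in EC1, with 91.8% of its reads in 1 cell. By the read totals of both genes, that cell must in each case be one of cluster 9. Most reads of Mmp9 and of Mmp8 in cluster 9 thus came from 1 cell, and their levels there do not describe its 72 cells.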
